A study of Mus musculus with 24 samples.

Results

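The genes described here are 9 mouse genes of neutrophil recruitment and granulocyte biology: the chemokines Cxcl1, Cxcl2, Cxcl3 and Cxcl5, their receptor Cxcr2, the granulocyte growth factor Csf3 and its receptor Csf3r, and the calcium-binding proteins S100a8 and S100a9. They were taken as a named list and matched by symbol, and all 9 were found among the 55335 genes of the deposited tables. Bulk RNA sequencing was done on tumours of MC38, a mouse colon carcinoma line, and of B16, a mouse melanoma line. The cells of each line were either CHEK2-knock out (KO) or the parental CHEK2-WT cells (WT), and the mice received anti-PD-1 or PBS. Each line thus gave 4 groups, KO with anti-PD-1, KO with PBS, WT with anti-PD-1 and WT with PBS, with 3 libraries in each and 24 libraries in all.

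CHK2, the kinase that Chek2 encodes, is switched on by DNA breaks and acts on p53 and the cell cycle, and anti-PD-1 blocks an inhibitory receptor of T cells. The knockout was made in the implanted tumour cells, so the host's neutrophils, macrophages and stroma keep the gene. Mouse strain, age, sex, antibody dose and the number of knockout clones are not given in the sources used here, and the labels name no animals, so p-values measure the spread between these libraries.

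CXCL1, CXCL2, CXCL3 and CXCL5 are secreted chemokines that bind CXCR2 on neutrophils and draw them into inflamed tissue. Tumour cells, fibroblasts, endothelium and macrophages make them, usually after IL-1, TNF or IL-17 has activated NF-kB. CSF3 (G-CSF) acts through CSF3R on the bone marrow to raise neutrophil output, and S100A8 and S100A9 form calprotectin, an abundant cytosolic protein of neutrophils that monocytes also hold. In tumours this axis is best known for bringing in neutrophils that can restrain T cells.

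The 4 chemokine genes lie in 1 cluster on chromosome 5, which spans 146.6 kb (mm10) between the start of Cxcl5 and the end of Cxcl2, and S100a8 and S100a9 lie 22.6 kb apart on chromosome 3. Cxcl1 is at chr5:90891241-90893115, Cxcl2 at chr5:90903871-90905938, Cxcl3 at chr5:90786103-90789600 and Cxcl5 at chr5:90759360-90761624, all on the plus strand. S100a8 is at chr3:90668978-90670035 on the plus strand and S100a9 at chr3:90692632-90695721 on the minus strand. Csf3r is at chr4:126024550-126044440, Cxcr2 at chr1:74153989-74161246 and Csf3 at chr11:98701263-98703629, all on the plus strand. All 9 are protein-coding, and none overlaps another annotated gene.

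Promoter sequences from RefSeq (GRCm38.p6) matched 7 of the 9 genes, all but Cxcl5 and Csf3. The 250 bases before the RefSeq transcription start are given for the 3 clustered chemokines with a match, which differ widely in level below, and for S100a8, S100a9 and Csf3r, which were higher together in one B16 comparison. Each reads 5′ to 3′ on the gene's own strand, and capitals mark matches to the NF-kB consensus, the C/EBP letters TTNNGNAAT, the PU.1 letters GAGGAA or the TATA letters TATAAA, searched on both strands.
Cxcl1: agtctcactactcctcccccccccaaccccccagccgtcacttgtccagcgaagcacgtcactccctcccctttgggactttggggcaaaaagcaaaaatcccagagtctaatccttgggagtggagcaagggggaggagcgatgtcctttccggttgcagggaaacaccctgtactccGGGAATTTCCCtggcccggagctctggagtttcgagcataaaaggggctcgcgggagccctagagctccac
Cxcl2: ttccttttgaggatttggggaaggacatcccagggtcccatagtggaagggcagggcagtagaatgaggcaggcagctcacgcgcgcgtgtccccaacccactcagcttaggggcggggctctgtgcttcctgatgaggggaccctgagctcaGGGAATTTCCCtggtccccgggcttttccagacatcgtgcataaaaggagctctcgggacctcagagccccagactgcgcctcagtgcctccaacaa
Cxcl3: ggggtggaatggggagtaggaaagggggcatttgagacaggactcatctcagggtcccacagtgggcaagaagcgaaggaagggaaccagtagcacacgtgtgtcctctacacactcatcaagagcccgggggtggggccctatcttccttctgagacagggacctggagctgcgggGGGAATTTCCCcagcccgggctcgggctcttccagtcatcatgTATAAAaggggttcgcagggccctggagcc
S100a8: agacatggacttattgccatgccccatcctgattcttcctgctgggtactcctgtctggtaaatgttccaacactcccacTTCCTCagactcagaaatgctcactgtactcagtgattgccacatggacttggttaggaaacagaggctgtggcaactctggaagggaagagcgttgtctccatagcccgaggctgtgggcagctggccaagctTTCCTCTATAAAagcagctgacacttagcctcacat
S100a9: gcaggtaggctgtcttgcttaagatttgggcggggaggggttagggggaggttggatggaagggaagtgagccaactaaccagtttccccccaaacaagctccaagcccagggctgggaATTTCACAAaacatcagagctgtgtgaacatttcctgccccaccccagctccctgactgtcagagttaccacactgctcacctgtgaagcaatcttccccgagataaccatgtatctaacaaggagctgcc
Csf3r: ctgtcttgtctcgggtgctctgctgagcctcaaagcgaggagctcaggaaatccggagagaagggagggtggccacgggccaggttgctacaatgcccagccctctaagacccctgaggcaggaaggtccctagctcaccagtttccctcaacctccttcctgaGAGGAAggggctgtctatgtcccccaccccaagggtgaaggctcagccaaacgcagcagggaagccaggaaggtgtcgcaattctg

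These windows are chr5:90890995-90891244 for Cxcl1, chr5:90903649-90903898 for Cxcl2, chr5:90785851-90786100 for Cxcl3, chr3:90668821-90669070 for S100a8 and chr4:126024409-126024658 for Csf3r, on the plus strand, and chr3:90695722-90695971 for S100a9, on the minus strand. Cxcl1, Cxcl2 and Cxcl3 share the NF-kB match GGGAATTTCC, with a second match overlapping it on the other strand, and its first base lies 71, 97 and 73 bases before their starts. A match to that consensus was present in 3.9% of the 32851 promoter windows of the same length. The TATA letters, found in 12.4% of windows, start 30 bases before the start in Cxcl3 and S100a8. S100a9 has a C/EBP match 131 bases before its start (10.2% of windows). The PU.1 letters (23.3% of windows) occur in Csf3r, at 86 bases, and, on the other strand, in S100a8 at 170 and at 36 bases, where the match ends next to the TATA match, and in Cxcr2 at 81 bases. The AP-1 letters TGANTCA, present in 6.75% of windows, were in none of the 7. A match is a string of letters, and binding was not measured.

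The genes were low in these tumours, and each line was read through a few of them. Values are FPKM, fragments scaled to transcript length and to sequencing depth, and a gene was tested in a line when at least 3 of its 12 libraries reached 1 FPKM. In MC38 that left 3 of the 9 genes, Cxcl1, S100a9 and Csf3r, among 14209 tested. In B16 it left 6 of 9, those 3 with Cxcl2, Cxcl5 and S100a8, among 13627. Cxcl3, Cxcr2 and Csf3 passed in neither line, and their values are given without a test. The median depth estimated from the files is rough. By that estimate 1 fragment is worth about 0.0167 to 0.147 FPKM, depending on the gene and transcript. Levels under about 0.2 FPKM would then rest on a few fragments, and differences between them were not detectable.

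The files and labels were checked once for the series. Chek2 itself averaged 3.22 ± 0.156 FPKM in MC38 KO tumours with anti-PD-1 and 2.17 ± 0.24 with PBS, against 5.44 ± 0.376 and 5.3 ± 0.775 in WT tumours with anti-PD-1 and PBS (SD, n = 3 each). In B16 the same groups averaged 6.42 ± 0.381 and 5.66 ± 0.0218 in KO tumours, against 8.22 ± 0.936 and 7.6 ± 0.389 in WT tumours. Averaged over treatments Chek2 was lower in KO tumours by a log2 difference of -0.80 ± 0.0697 in MC38 (adjusted p = 3.43e-05) and -0.34 ± 0.0612 in B16 (adjusted p = 0.00285 in limma). Transcript remained in both KO lines. Estimated depth was 13580000 to 24250000 fragments per library. This estimate is rough, since only 3.94% to 31.4% of low values were whole fragments within 0.02. Within groups Pearson's r between libraries, across genes, was 0.979 to 0.992 (log2 values). The 3 B16 KO anti-PD-1 libraries stood apart in the sum of FPKM over all genes, 375193 to 398474, against 310868 to 344059 in the other 21 libraries. Within that group replicate 1 had the highest value of all 9 genes described here.

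The 6 most specific neutrophil markers looked at were low, while the wider identity list was less so in MC38. Ly6g, whose product defines mouse neutrophils in flow cytometry, was listed at 0 in all 24 libraries. Retnlg, a neutrophil transcript, was above 0 in 11 libraries and reached 6.43 FPKM in B16 KO anti-PD-1 replicate 2. Mmp8, neutrophil collagenase, reached 1.35 FPKM in replicate 1 of that group, and Cxcr1, the second chemokine receptor of neutrophils, reached 0.965 FPKM in a B16 KO PBS library. The granule genes Camp and Elane did not exceed 0.0988 and 0.0569 FPKM. Of the 23 genes of the identity list, 5 to 10 reached 1 FPKM in each MC38 library and 2 to 11 in each B16 library. The 11 belong to B16 KO anti-PD-1 replicate 1 alone, and replicates 2 and 3 of that group had 5 and 4. Its members Mmp9, gelatinase B, and Clec4d had 5.66 to 24.7 and 2.30 to 6.89 FPKM in MC38, and macrophages transcribe both. The label of granulocyte genes names what these genes are known for, and S100a8, S100a9 and Csf3r are also transcribed by monocytes and macrophages. Which cells transcribed them here was not tested. In bulk tissue, fewer cells of a type and less RNA per cell cannot be told apart.

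**Figure D1:**
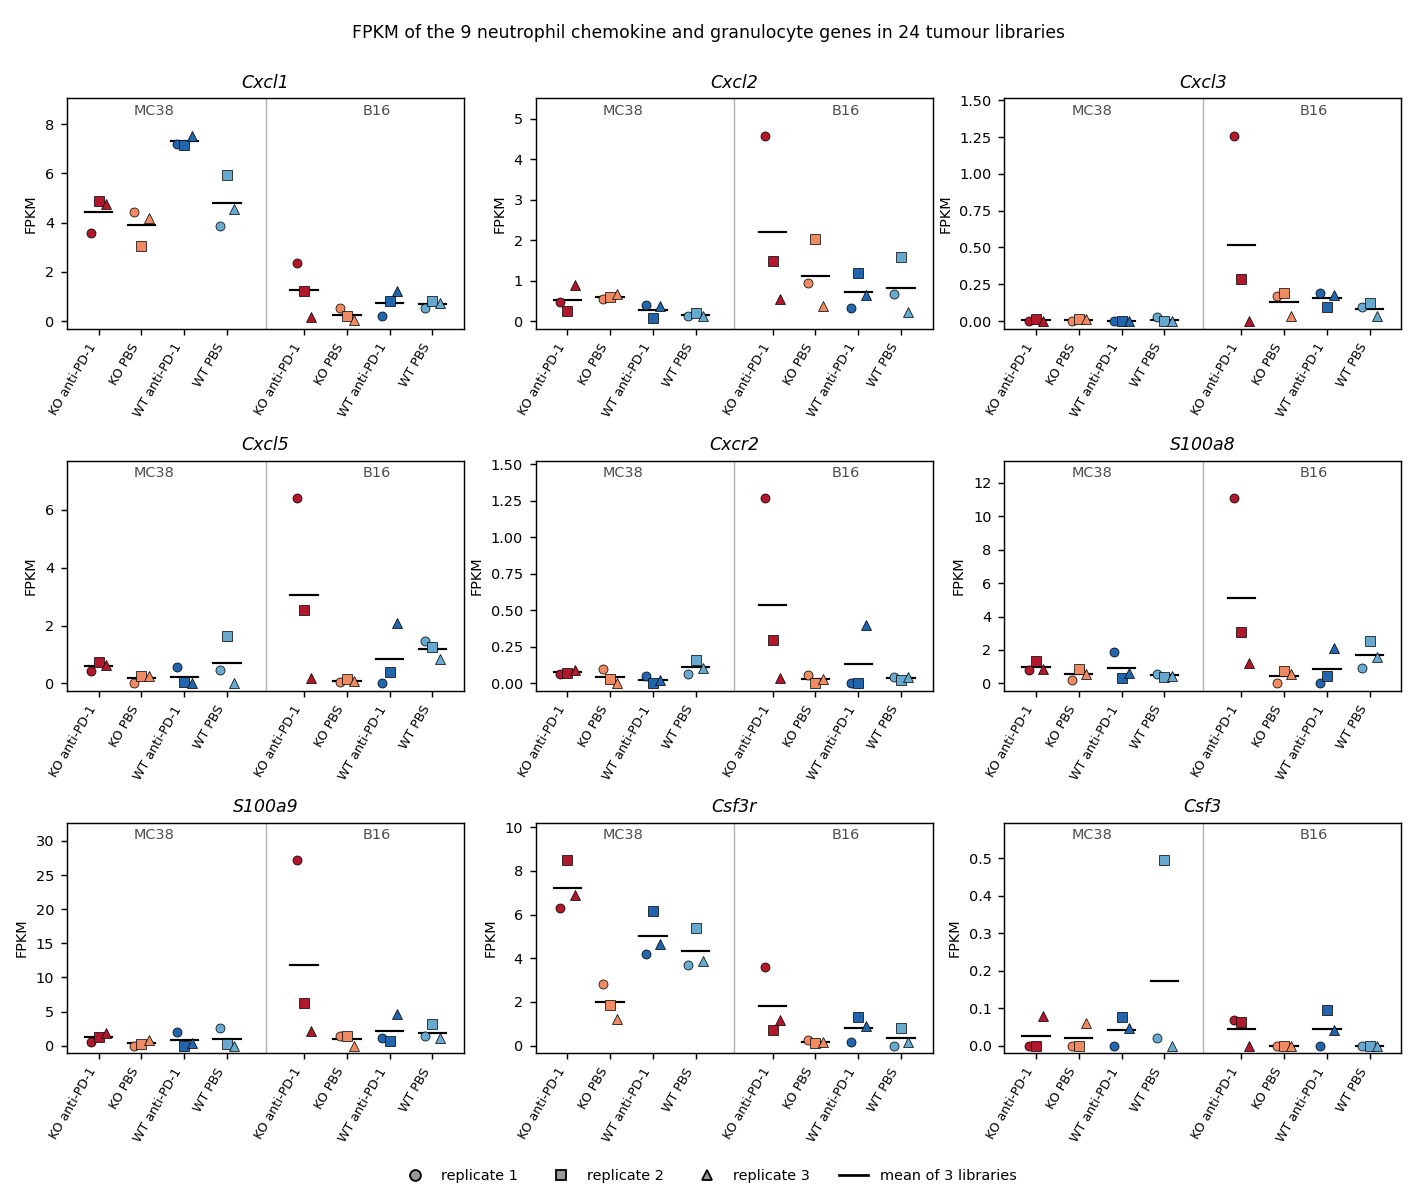
FPKM of each of the 9 genes (y axis, linear, own scale per panel) in the 24 libraries, by group, KO left of WT and anti-PD-1 left of PBS, with MC38 and B16 on either side of the grey line. Each symbol is 1 library and each bar the mean of 3. Cxcl1 and Csf3r are highest in MC38, and the other panels except Csf3 are topped by B16 KO anti-PD-1 replicate 1, which reaches 27.2 FPKM for S100a9.

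Cxcl1, the main neutrophil chemokine of the mouse, was the ligand with the highest level in MC38 tumours. There it had 3.58, 4.89 and 4.77 FPKM in the KO anti-PD-1 libraries and 4.45, 3.07 and 4.18 FPKM in the KO PBS libraries. It had 7.21, 7.16 and 7.54 FPKM in WT tumours with anti-PD-1 and 3.85, 5.95 and 4.57 FPKM in WT tumours with PBS. The WT anti-PD-1 libraries lay close together and above every other MC38 library, and the other 3 groups overlapped.

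Under anti-PD-1, Cxcl1 fell in KO tumours, which averaged 4.41 ± 0.724 FPKM against 7.3 ± 0.205 in WT tumours. The log2 difference of FPKM + 1 was -0.63 ± 0.150 (SE), with an adjusted p of 0.0225 in limma's moderated test with Benjamini-Hochberg adjustment over all genes tested. It was the 1 gene of the 3 tested that was called there, while 12.1% of all genes were, 7.05% as lower. The call was lost without any 1 of the 3 WT anti-PD-1 libraries, or without KO anti-PD-1 replicate 1 or 3, with adjusted p-values of 0.05 to 0.0763 and differences of -0.68 to -0.51. Averaged over both treatments, Cxcl1 was also lower in KO than in WT tumours, by -0.43 ± 0.106 (adjusted p = 0.0123 in limma), where 27.4% of all genes were called. An exact permutation of genotype within treatment gave p = 0.02, two-sided, and 0.005 is the smallest p it allows. That p is not adjusted for the other members and the other line, which were permuted too.

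No other Cxcl1 comparison in MC38 passed the test. Under PBS the difference of KO from WT was -0.24 ± 0.150 (adjusted p = 0.282). In WT tumours all 3 anti-PD-1 libraries lay above all 3 PBS libraries, as did 9.94% of all genes, with a difference of 0.54 ± 0.150 (adjusted p = 0.174), but no gene of the 14209 was called in that comparison, 0%, although 1953 had an unadjusted p under 0.05. In KO tumours anti-PD-1 and PBS differed by 0.15 ± 0.150 (adjusted p = 0.614). The genotype by treatment interaction was -0.39 ± 0.213 (adjusted p = 0.346), so the effect of anti-PD-1 on Cxcl1 was not shown to differ between genotypes.

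B16 tumours had less Cxcl1. The KO libraries had 2.35, 1.23 and 0.167 FPKM with anti-PD-1 and 0.533, 0.213 and 0.0404 FPKM with PBS, and the WT libraries had 0.221, 0.826 and 1.21 FPKM with anti-PD-1 and 0.533, 0.808 and 0.745 FPKM with PBS. The treated groups spread widely and overlapped each other and WT with PBS. Under PBS the KO libraries lay below the WT libraries, the nearest 2 by less than the rounding shown, yet the difference of -0.44 ± 0.345 did not pass (adjusted p = 0.645). Anti-PD-1 and PBS in KO tumours differed by 0.72 ± 0.345 (adjusted p = 0.11), and by 1.13 (adjusted p = 0.0103 in limma) without KO anti-PD-1 replicate 3. Cxcl1 too reached 1 FPKM in 3 B16 libraries, all given anti-PD-1, so these values are a description.

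Over the 4 conditions Cxcl1 was higher in MC38 than in B16, with 3.07 to 7.54 FPKM (median 4.67) in 12 MC38 libraries and 0.0404 to 2.35 FPKM (median 0.639) in 12 B16 libraries. The ranges did not overlap, and 16.1% of all genes tested had every MC38 library above every B16 library. The log2 difference was 1.85 ± 0.138 (adjusted p = 1.71e-10 in limma). In that comparison 2 of the 6 tested genes were higher in MC38, Cxcl1 and Csf3r, and 2 were lower, Cxcl2, which passed the filter through B16 alone, and S100a9, while 79.6% of all 15655 genes were called, 43.5% as higher and 36.2% as lower. The line cannot be told apart from anything else that differed between the 2 sets of libraries. The groups ranked MC38 WT anti-PD-1, MC38 WT PBS, MC38 KO anti-PD-1, MC38 KO PBS, B16 KO anti-PD-1, B16 WT anti-PD-1, B16 WT PBS and B16 KO PBS from the highest mean down. Neighbours in that order overlapped except after the first, the fourth and the seventh place.

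Cxcl2 (MIP-2), a chemokine that macrophages release early, showed the opposite line order. Its 12 MC38 libraries had 0.0775 to 0.88 FPKM (median 0.387) and its 12 B16 libraries 0.22 to 4.58 FPKM (median 0.801), a log2 difference of -0.55 ± 0.179 (adjusted p = 0.00862 in limma). The ranges overlapped. Cxcl2 reached 1 FPKM in 5 B16 libraries and in 0 MC38 libraries, so it was tested only because of the line in which it is higher, and this value is a description. Among the MC38 groups, where it was under the filter, Cxcl2 had 0.541, 0.601 and 0.659 FPKM in KO PBS libraries, against 0.135, 0.190 and 0.133 FPKM in WT PBS libraries. The KO libraries were all above the WT libraries, as were those of 20.4% of tested genes, and both groups rest on few fragments. Averaged over treatments the difference was 0.36 (exact permutation within treatment, p = 0.02, two-sided, n = 6 each). The same permutation was run for every member in both lines, and its p-values are not adjusted for that number. Only Cxcl1 and Cxcl2 in MC38 were under 0.05, and the next smallest exact permutation p was 0.235, for Cxcl2 in B16. In B16, Cxcl2 had 4.58, 1.49 and 0.551 FPKM in KO anti-PD-1 libraries, against 0.935, 2.02 and 0.384 FPKM in KO PBS libraries. These overlap, and the difference of 0.47 ± 0.455 (adjusted p = 0.424) became -0.03 when KO anti-PD-1 replicate 1 was left out and 0.89 when replicate 3 was.

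Cxcl3, the least abundant ligand, was listed at 0 in 8 of 12 MC38 libraries and did not exceed 0.0249 FPKM there. It was above 0 in 11 of 12 B16 libraries, with 1.26, 0.286 and 0 FPKM in KO anti-PD-1 libraries and 0.0321 to 0.192 FPKM in the 9 libraries of the other B16 groups. Only KO anti-PD-1 replicate 1 reached 1 FPKM. The genes that share the NF-kB match near the start had medians of 4.67, 0.387 and 0 FPKM in MC38 for Cxcl1, Cxcl2 and Cxcl3, and 0.639, 0.801 and 0.147 FPKM in B16. Whether the match bears on these levels was not tested.

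Cxcl5 (LIX), a chemokine of epithelial and stromal cells, differed with anti-PD-1 in B16 KO tumours. It had 6.42, 2.54 and 0.190 FPKM in the KO anti-PD-1 libraries, against 0.0308, 0.134 and 0.0781 FPKM in the KO PBS libraries, and 0, 0.399 and 2.08 FPKM in WT anti-PD-1 libraries, against 1.45, 1.25 and 0.849 FPKM in WT PBS libraries. Every KO anti-PD-1 library was above every KO PBS library, replicate 3 only narrowly. Every KO PBS library was below every WT PBS library.

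Cxcl5 rose by 1.54 ± 0.561 with anti-PD-1 in B16 KO tumours (adjusted p = 0.0443 in limma). Without KO anti-PD-1 replicate 1 the difference was 0.93 (adjusted p = 0.172), and the call was lost without 9 of the 12 libraries in turn, all but WT anti-PD-1 replicates 1 and 3 and KO anti-PD-1 replicate 3. Under PBS the difference of KO from WT was -1.00 ± 0.561 (adjusted p = 0.476), and 3 of the 9 genes, Cxcl1, Cxcl5 and S100a8, had all KO PBS libraries below all WT PBS libraries, as did 13.7% of all genes, and no member but 0.470% of all genes were called. The interaction of 1.96 ± 0.793 did not pass (adjusted p = 0.0951), though it did with KO anti-PD-1 replicate 3 left out (2.66, adjusted p = 0.0107). In MC38, Cxcl5 was under the filter, with 0.431, 0.735 and 0.644 FPKM in KO anti-PD-1 libraries, against 0, 0.269 and 0.248 FPKM in KO PBS libraries, which lie all lower, a separation seen in 14.6% of tested genes. WT libraries had 0 to 0.552 FPKM with anti-PD-1 and 0 to 1.63 FPKM with PBS.

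Cxcr2, the receptor of all 4 ligands and a marker of mature neutrophils, stayed at 0 to 0.162 FPKM in MC38, about the value of a few fragments. In B16 it had 1.27, 0.299 and 0.0334 FPKM in KO anti-PD-1 libraries and 0.0582, 0 and 0.0273 FPKM in KO PBS libraries, and it reached 0.398 FPKM in 1 WT anti-PD-1 library. The first 2 KO anti-PD-1 libraries stood above all PBS libraries, and the third did not. Csf3, the ligand of Csf3r, was listed at 0 in 14 of 24 libraries, among them all 6 B16 PBS libraries, and its highest value was 0.495 FPKM in MC38 WT PBS replicate 2. With so little transcript no group could be ranked for either gene.

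Csf3r, the G-CSF receptor of granulocytes and their precursors, had the smallest adjusted p-value of the tested genes in MC38. It had 6.31, 8.49 and 6.89 FPKM in KO anti-PD-1 libraries, against 2.81, 1.88 and 1.24 FPKM in KO PBS libraries. It had 4.20, 6.17 and 4.63 FPKM in WT anti-PD-1 libraries, against 3.71, 5.39 and 3.87 FPKM in WT PBS libraries. The KO PBS libraries were the lowest of the line and the KO anti-PD-1 libraries the highest, with no overlap with any other group, while the WT groups overlapped each other.

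With anti-PD-1, Csf3r rose in MC38 KO tumours to 7.23 ± 1.13 FPKM, against 1.98 ± 0.791 FPKM with PBS (SD, n = 3 each). The log2 difference was 1.49 ± 0.200 (adjusted p = 0.00208 in limma), and it was the 1 of 3 tested genes called, where 8.99% of all genes were, 6.12% as higher. It passed in each of the 12 fits that left out 1 library (1.30 to 1.69). Under PBS, Csf3r fell in KO tumours to 1.98 ± 0.791 FPKM, against 4.33 ± 0.926 FPKM in WT tumours. That difference was -0.86 ± 0.200 (adjusted p = 0.0115 in limma), again 1 of 3, where 23.4% of all genes were called, 11.6% as lower. It too passed without any 1 library (adjusted p up to 0.0488) but had an adjusted p of 0.0594 when all 24 libraries shared 1 fit. These 2 comparisons share the KO PBS libraries.

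Under anti-PD-1, Csf3r was 0.46 ± 0.200 higher in KO than in WT tumours without passing (adjusted p = 0.161), although all KO libraries lay above all WT libraries, and 34.1% of genes did not overlap in either direction. Anti-PD-1 and PBS in WT tumours differed by 0.17 ± 0.200 (adjusted p = 0.742). The interaction, the anti-PD-1 difference in KO minus that in WT, was 1.32 ± 0.282 (adjusted p = 0.0409 in limma), and Csf3r was the 1 of 3 tested genes called, where 2.44% of all genes were, 1.81% as higher. It stayed called in 2 of the 12 fits that left out 1 library, with adjusted p-values of 0.00954 to 0.106, and the 10 libraries whose removal ended the call were all 3 of WT PBS, all 3 of WT anti-PD-1, KO PBS replicates 2 and 3 and KO anti-PD-1 replicates 2 and 3. Averaged over treatments KO and WT differed by -0.20 ± 0.141 (adjusted p = 0.329).

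**Figure D2:**
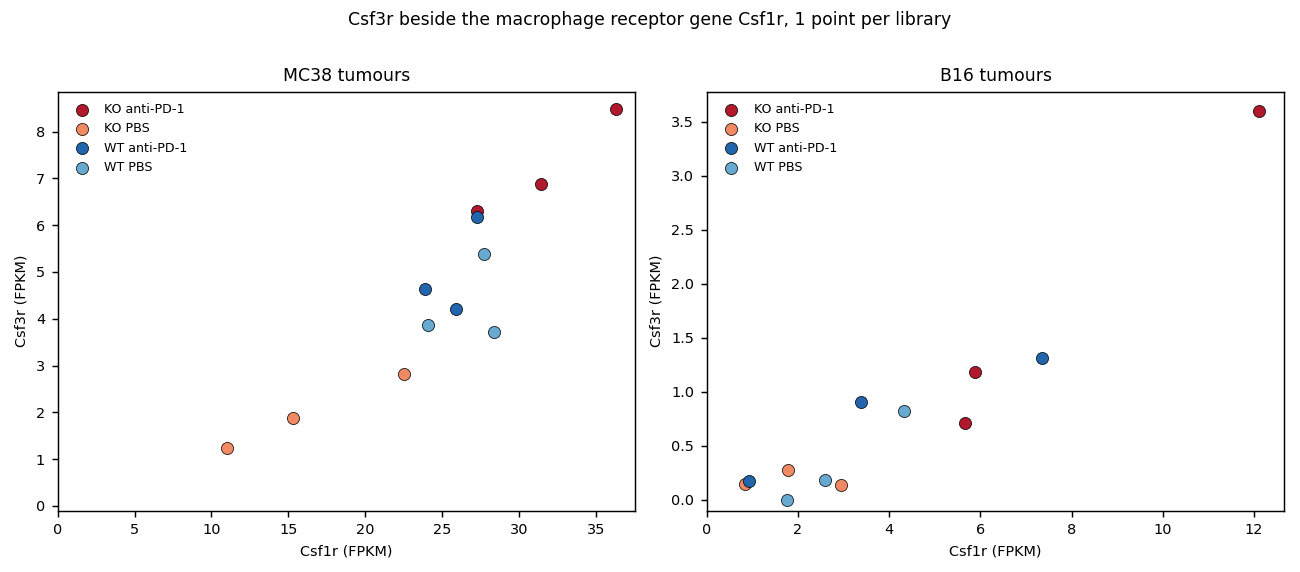
Csf3r against Csf1r, the receptor of macrophage growth factor, both in FPKM, with 1 point per library in MC38 (left) and B16 (right), coloured by group. In MC38 the 3 KO PBS libraries are lowest on both axes, at 11 to 22.5 FPKM of Csf1r, and the KO anti-PD-1 libraries are highest for Csf3r, while their Csf1r of 27.3 to 36.3 FPKM overlaps the WT libraries.

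Macrophage genes moved beside Csf3r in MC38. Of the 15 monocyte and macrophage markers, 10 were lower in KO than in WT tumours under PBS and none was higher, and with anti-PD-1 in KO tumours 10 were higher and 1, Vcan, was lower. Their summed level was 1848.3 to 2495.4 FPKM in KO anti-PD-1 libraries, 578.5 to 1372.9 in KO PBS libraries, 1703.4 to 1972.7 in WT anti-PD-1 libraries and 1773.4 to 2082.7 in WT PBS libraries. Csf1r fell by 0.73 in KO tumours under PBS (adjusted p = 0.022) and rose by 0.96 with anti-PD-1 in KO tumours (adjusted p = 0.0123 in limma). The T cell list moved the same way, with 6 of 7 lower and then 7 of 7 higher. These counts stand against 23.4% of all genes called under PBS, 11.6% as lower, and 8.99% with anti-PD-1 in KO tumours, 6.12% as higher. The neutrophil identity list, with 10 of 23 tested, had 1 lower gene under PBS, Acod1, a share near that of all genes called lower. With anti-PD-1 in KO it had 3 higher genes, Acod1, Slfn4 and Clec4d, and macrophages also transcribe these. Its sum was 45.4 to 57.2 FPKM in KO anti-PD-1 libraries and 31.9 to 33 in KO PBS libraries. The part of these cells in the Csf3r result was not tested.

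By Pearson's r over the 12 MC38 libraries, the genes most like Csf3r among 11595 candidates were Fgd2 (0.982), Neurl3 (0.979) and Ptpn22 (0.978). In B16 they were Tifab (0.968), Gimap8 (0.968) and Gm21188 (0.964). For Cxcl1 they were Gcsh (0.910), Gcat (0.909) and B9d1 (0.899) in MC38, and Sod3 (0.930), Nrep (0.925) and Il1r1 (0.922), which encodes the IL-1 receptor, in B16. These are descriptions over libraries that share their groups and depth.

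In B16, Csf3r had 3.60, 0.714 and 1.18 FPKM in KO anti-PD-1 libraries, against 0.278, 0.135 and 0.146 FPKM in KO PBS libraries. WT libraries had 0.170, 1.31 and 0.902 FPKM with anti-PD-1, against 0, 0.822 and 0.186 FPKM with PBS. The KO groups were apart and the WT groups overlapped. The log2 difference of anti-PD-1 from PBS in KO tumours was 1.12 ± 0.369 (adjusted p = 0.0299 in limma). Csf3r reached 1 FPKM in 3 B16 libraries, all given anti-PD-1, so it was tested only because of the treatment under which it is higher, and this value is a description. Leaving out any 1 KO PBS library ended the call (adjusted p = 0.0546 to 0.0724), and without KO anti-PD-1 replicate 1 or 3 or WT anti-PD-1 replicate 2 too few libraries reached 1 FPKM for a test. Over the 4 conditions MC38 had more Csf3r than B16, 1.24 to 8.49 FPKM (median 4.41) against 0 to 3.60 FPKM (median 0.496), a log2 difference of 1.69 ± 0.155 (adjusted p = 4.03e-09 in limma). The difference between lines in the anti-PD-1 effect in KO tumours was 0.37 ± 0.438 (adjusted p = 0.574), and in the KO effect under PBS it was -0.73 ± 0.438 (adjusted p = 0.322), so neither effect was shown to differ between the lines.

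S100a8 and S100a9, which encode the subunits of calprotectin, reached the highest levels of the 9 genes, and did so in B16 KO tumours given anti-PD-1. S100a8 had 11.1, 3.07 and 1.22 FPKM in KO anti-PD-1 libraries, against 0, 0.737 and 0.540 FPKM in KO PBS libraries. S100a9 had 27.2, 6.21 and 2.18 FPKM in KO anti-PD-1 libraries, against 1.40, 1.41 and 0 FPKM in KO PBS libraries. For both genes the KO anti-PD-1 libraries all lay above the KO PBS libraries, with replicate 1 far above the other two.

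In WT tumours of B16, S100a8 had 0, 0.454 and 2.12 FPKM with anti-PD-1, against 0.913, 2.52 and 1.57 FPKM with PBS, and S100a9 had 1.14, 0.646 and 4.66 FPKM with anti-PD-1, against 1.36, 3.19 and 1.15 FPKM with PBS. These groups overlapped. In each WT group the library with the most S100a8 also had the most S100a9.

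With anti-PD-1 in B16 KO tumours S100a8 rose by 1.78 ± 0.569 (adjusted p = 0.0263) and S100a9 by 2.27 ± 0.719 (adjusted p = 0.0258 in limma). With Cxcl5 they made 3 called genes, and Csf3r, which passed the filter through anti-PD-1 libraries alone, was a 4th of the 6 tested, in a comparison where 43.9% of all genes were called, 18.9% as higher. The libraries of these 4 did not overlap, as in 24.2% of all genes. Without KO anti-PD-1 replicate 1 none of the 4 was called and Csf3r was under the filter, with 1.12 for S100a8 (adjusted p = 0.0939) and 1.41 for S100a9 (adjusted p = 0.0901), and none was called without KO PBS replicate 3 either, where S100a8 had 1.86 (adjusted p = 0.0534) and S100a9 had 1.85 (adjusted p = 0.094). Without KO PBS replicate 1, S100a8 had 1.55 (adjusted p = 0.084). With protein-coding genes rescaled to equal sums the median of all genes in this comparison was -0.18, against -0.03 as deposited, and 22.3% instead of 43.1% of called genes were higher. The 4 genes kept their direction and calls under that rescaling.

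**Figure D3:**
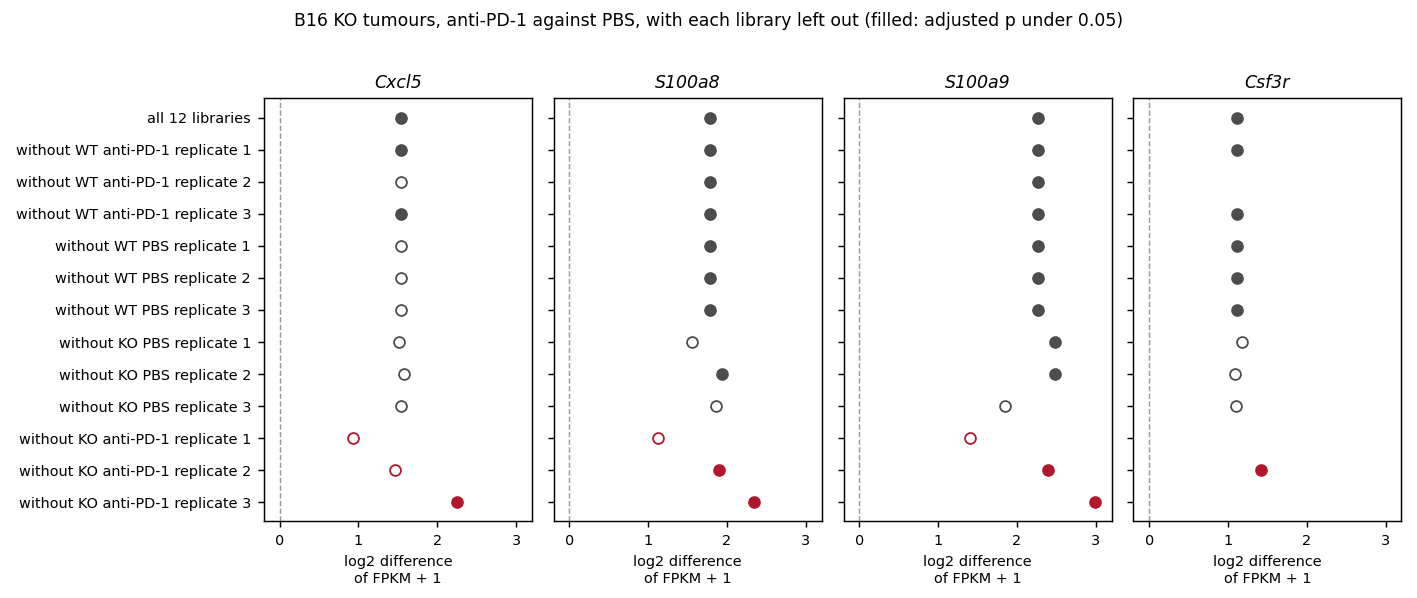
Log2 difference of FPKM + 1, anti-PD-1 against PBS in B16 KO tumours (x axis), for the 4 genes called, with all 12 B16 libraries (top row) and with each library left out in turn. Filled points have an adjusted p under 0.05, a missing point means the gene fell under the filter, and red marks the removal of a KO anti-PD-1 library. Without replicate 1 of that group no filled point is left and S100a9 moves to 1.41.

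In B16 under anti-PD-1, KO exceeded WT by 1.53 ± 0.569 for S100a8 (adjusted p = 0.0512) and by 1.67 ± 0.719 for S100a9 (adjusted p = 0.0842). None of the 6 tested genes was called there, while 40.8% of all genes were. With unadjusted p-values under 0.05 in limma there were 2 of the 6, these same genes, and 6838 of all 13627 genes. S100a8 passed without WT anti-PD-1 replicate 3 (1.99, adjusted p = 0.0286). Once KO anti-PD-1 replicate 3 was left out, both passed, S100a8 at 2.08 (adjusted p = 0.0131) and S100a9 at 2.40 (adjusted p = 0.0183 in limma). The interaction of S100a8, 2.43 ± 0.804, passed (adjusted p = 0.0497 in limma), the 1 of 6 tested genes called, where 23.5% of all genes were, 8.90% as higher. It was lost without any of 10 of the 12 libraries in turn, kept only without WT anti-PD-1 replicate 3 or KO anti-PD-1 replicate 3, and had adjusted p-values of 0.0167 to 0.104 over those fits. The interaction of S100a9 was 2.30 ± 1.02 (adjusted p = 0.122), and with KO anti-PD-1 replicate 3 left out it was 3.02 (adjusted p = 0.0361).

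In B16 KO against WT under PBS no member was called, and S100a8 differed by -0.90 ± 0.569 (adjusted p = 0.547). Averaged over treatments none of 6 was called either, where 26.5% of all genes were. In B16 WT tumours anti-PD-1 gave no called gene at all, 0% of 13627, with 281 genes at an unadjusted p under 0.05. In MC38, S100a8 was under the filter at 0.218 to 1.86 FPKM (median 0.595). S100a9 there had 0.520, 1.29 and 1.89 FPKM in KO anti-PD-1 libraries, against 0, 0.212 and 0.819 FPKM in KO PBS libraries, a difference of 0.73 ± 0.511 (adjusted p = 0.436), which was the smallest of its 6 adjusted p-values in MC38.

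S100a9 was lower in MC38 than in B16 over the 4 conditions, with 0 to 2.63 FPKM (median 0.459) against 0 to 27.2 FPKM (median 1.41). The log2 difference was -0.99 ± 0.334 (adjusted p = 0.011 in limma), and the ranges overlapped. S100a8 at -0.46 ± 0.235 (adjusted p = 0.0824) and Cxcl5 at -0.45 ± 0.239 (adjusted p = 0.0912) did not pass. With B16 KO anti-PD-1 replicate 3 left out both passed, S100a8 at -0.59 (adjusted p = 0.015) and Cxcl5 at -0.62 (adjusted p = 0.00507), and so they did without B16 WT anti-PD-1 replicate 1, at -0.55 and -0.54. Without MC38 WT anti-PD-1 replicate 1 S100a8 passed at -0.54, and without MC38 WT PBS replicate 2 Cxcl5 did at -0.54. Both genes were under the filter in MC38 and entered this comparison through B16, the line in which they are higher. Their values here are therefore a description. The difference between lines in the anti-PD-1 effect in KO tumours, MC38 minus B16, was -1.40 ± 0.665 for S100a8 (adjusted p = 0.132), and none of the 6 tested genes was called in it, where 26.0% of all genes were. With B16 KO anti-PD-1 replicate 3 left out 3 were called, S100a8 at -1.95 (adjusted p = 0.0244) among them. None was called either for the KO effect under PBS (9.46% of all genes) or averaged over treatments (31.3%).

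**Figure D4:**
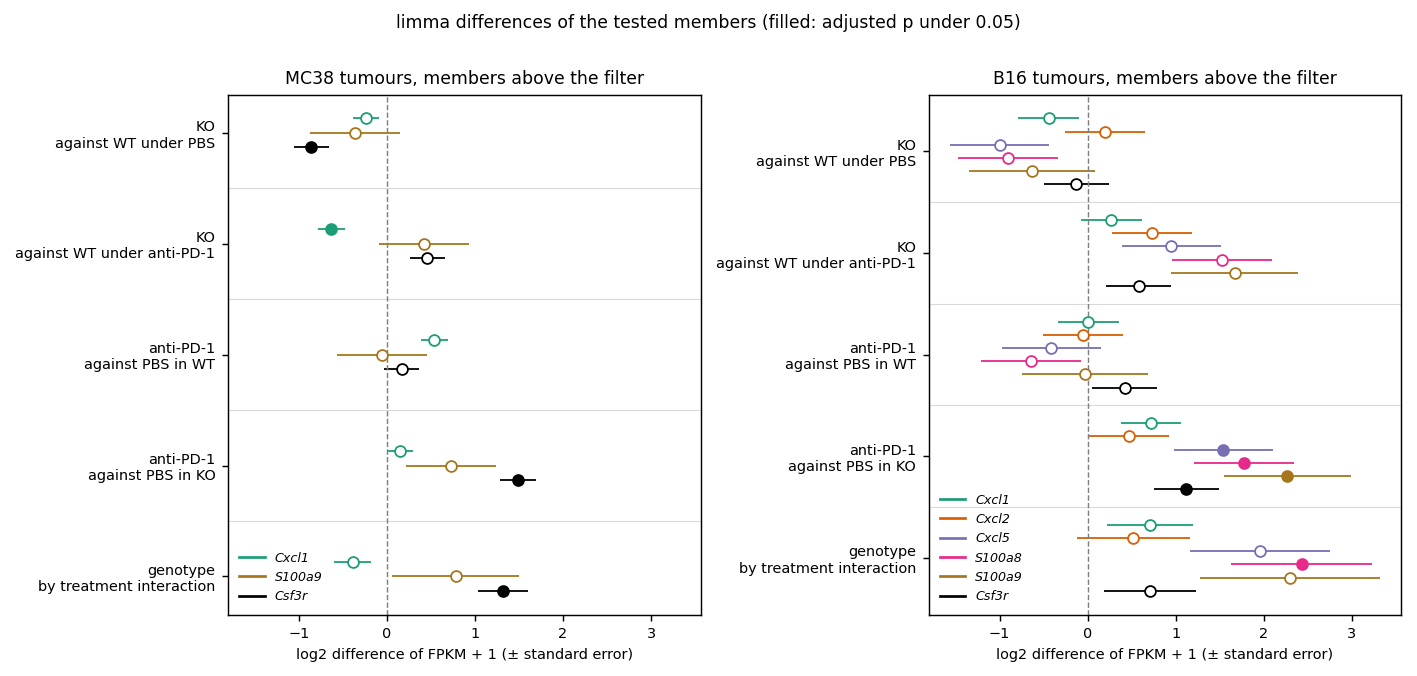
Log2 differences of FPKM + 1 (x axis, ± SE) of the tested genes in 5 comparisons (rows) in MC38 (left, 3 genes) and B16 (right, 6 genes). Filled points have an adjusted p under 0.05: Csf3r in 3 rows and Cxcl1 in 1 row of MC38, and in B16 4 genes with anti-PD-1 in KO and the S100a8 interaction.

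Counts for other genes of the pathway with anti-PD-1 in B16 KO tumours stand against 43.9% of all genes called and 18.9% called higher. Of the 7 tested genes of the S100 cluster outside the members, 7 rose, led by S100a6 (2.21 ± 0.359, adjusted p = 0.000821) and S100a4 (2.14 ± 0.448, adjusted p = 0.00343 in limma), with a median of 1.12 against -0.03 over all genes. Of 12 other attractant and egress genes 6 were tested and 4 rose, with Alox5ap, which helps make leukotrienes, at 2.09 ± 0.461 and Cxcl12, the ligand that holds neutrophils in bone marrow, at 1.49 ± 0.384. Pf4, a platelet chemokine that macrophages also transcribe, rose by 2.31 ± 0.501 (adjusted p = 0.0042), the 1 tested of 3 other CXC chemokines. Among the inducers, 18 of 24 were tested, and 6 called is a share below that of all genes. Of these 5 rose, led by Icam1 (1.04 ± 0.352) and Birc3 (0.79 ± 0.269), and 1, Rel, fell by 0.44. In B16 Icam1 and Tnf of the inducers and Fpr2 of the attractant genes reached 1 FPKM in anti-PD-1 libraries alone. They were thus tested only because of the treatment under which they are higher. The value of Icam1 and the counts of these 2 lists are therefore a description. Il1b, the inflammatory cytokine, had 11.4, 1.93 and 1.80 FPKM in KO anti-PD-1 libraries, against 1.38, 3.48 and 0.440 in KO PBS libraries, and was not called (0.91 ± 0.605, adjusted p = 0.243).

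Lists of neutrophils and of other cells summed to more in the KO anti-PD-1 than in the KO PBS libraries, while few neutrophil genes could be tested. Of the 23 identity markers 4 were tested and 1 rose, Clec4d (1.69 ± 0.461), a share near the 18.9% of all genes. The list summed to 25.6 to 66.5 FPKM in KO anti-PD-1 libraries and 8.01 to 18.6 FPKM in KO PBS libraries. Retnlg, under the filter in B16, had 4.29, 6.43 and 0 FPKM in KO anti-PD-1 libraries, against 0, 0.409 and 0 FPKM in KO PBS libraries. Values of Mmp8 and of Cxcr1 overlapped between these groups. Of the 14 granule genes 2 were tested and 1, Chil3 (2.25 ± 0.395), rose, and both Chil3 and Clec4d are transcribed by macrophages too. In B16 Chil3 reached 1 FPKM in the KO anti-PD-1 libraries alone. It was thus tested only because of the group in which it is higher, and its value is a description. The granule list summed to 3.55 to 18.3 FPKM in KO anti-PD-1 libraries and 0.829 to 1.17 FPKM in KO PBS libraries. Of 15 monocyte and macrophage markers 10 rose and none fell, with sums of 540.0 to 1406.3 and 108.4 to 265.2 FPKM in the same groups. Ly6c2 of these 15 and Acod1 of the identity markers reached 1 FPKM in B16 in anti-PD-1 libraries alone. Both thus entered the test through the treatment under which they are higher. Fibroblast markers rose in 5 of 8, with sums of 55.8 to 336.1 and 12.7 to 21.4 FPKM. Of 7 T cell markers 2 were tested and both rose, with sums of 6.28 to 20.9 FPKM in KO anti-PD-1 libraries and 0.368 to 0.536 FPKM in KO PBS libraries. Of 13 mast cell, basophil and eosinophil markers 2 were tested and both rose, with sums of 4.21 to 14.2 and 0.0565 to 0.245 FPKM in the same groups. No T cell, mast cell, basophil or eosinophil marker reached 1 FPKM in a B16 PBS library. Those tested passed the filter through anti-PD-1 libraries alone, so their rises are a description. Erythroid markers were not called and summed to 15559.0 FPKM in KO anti-PD-1 replicate 1, against 2035.8 and 1014.8 in its other two replicates and 198.7 to 3648.7 in KO PBS libraries. The part of these cells and of blood in the results was not tested.

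Over the 12 B16 libraries the genes most like Cxcl2 were Il1b (0.931), Cd36 (0.915) and Cd14 (0.877), those most like Cxcl5 were Timp1 (0.960), Tmem45a (0.953) and Arg1 (0.943), those most like S100a8 were Tmem37 (0.935), Ms4a4a (0.934) and Arg1 (0.929), and those most like S100a9 were Fkbp7 (0.951), Arg1 (0.936) and Pf4 (0.934). In MC38 those most like S100a9 were Fscn1 (0.853), Dmbt1 (0.843) and Psmc3 (0.842). KO anti-PD-1 replicate 1, the library where all 9 members were the highest of their group, is among the libraries behind each of the B16 values.

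In MC38 KO tumours 5 of the 7 tested attractant genes rose with anti-PD-1, led by the formyl peptide receptors Fpr2 (1.88 ± 0.312) and Fpr1 (adjusted p = 0.0285), and 3 of 7 colony-stimulating factor genes, Csf1r, Csf2ra (0.83 ± 0.211) and Csf2rb2. No gene of either list fell. Of 19 tested inducers, 2 rose there, where 8.99% of all genes were called, Tnf (1.48 ± 0.187) and Icam1 (1.19 ± 0.205), which encode the cytokine TNF and an adhesion molecule that neutrophils bind. In KO against WT under PBS 6 of the 19 inducers were called, where 23.4% of all genes were, with 2 higher, Ptgs2 (0.85 ± 0.172) and Nfkb2 (0.37 ± 0.0896), and 4 lower, led by Icam1 (-0.95 ± 0.205) and Tnf (-0.74 ± 0.187). Under anti-PD-1, where Cxcl1 fell, KO tumours had 2 higher inducers, Il1rn (1.01 ± 0.189), the IL-1 receptor antagonist, and Tnfrsf1a (0.39 ± 0.0899), and no lower one, 2 of 19 where 12.1% of all genes were called. Of 10 tested identity markers Slfn4 was higher there (1.12 ± 0.219) and Mmp9 lower (-1.12 ± 0.242).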

How the data were processed

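Bulk RNA-seq of 24 tumour libraries in 8 groups of 3 was analysed. Per the labels' protocols, total RNA was taken with Trizol and libraries followed standard Illumina protocols. Per the submitters' processing notes the tools were FastQC, STAR 2.5, Cuffnorm and DESeq with mm10; their roles, the annotation and the strand setting are not given in the sources used here. The deposited values were taken as FPKM made by the authors, since they are not whole and their sums per library are unequal (310868 to 398474). Whole reads could not be recovered, as 3.94% to 31.4% of low values were whole within 0.02, so no count test was run. GENCODE M21 symbols matched 55154 of 55335 gene IDs. No 2 libraries shared more than 0.0302% of nonzero values.

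Groups came from the labels, and replicate numbers follow the order of the records. log2(FPKM + 1) was fitted in limma 3.58.1 (R 4.3.3) with 1 mean per group, per line (12 libraries) or over all 24, with trend-moderated variances, two-sided tests and Benjamini-Hochberg adjustment over genes that reached 1 FPKM in 3 or more libraries. Genes were called at an adjusted p under 0.05. The pseudocount understates changes of low genes. Each line had 6 comparisons and 4 spanned both lines. Steps were tested on simulated data. Alternatives were the pseudocount, filter, scaling, variance trend, libraries in the fit and leaving out each library.

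The 9 members, the gene lists and the comparisons were chosen with earlier results of these data known. Named are the members, 6 neutrophil markers, up to 2 called genes of each list and comparison with the largest difference, and the 3 genes with the highest r to each member. Il1b, Clec4d, Slfn4, Csf1r and Csf2rb2, where outside that rule, were named after their values were seen. Promoter sequences came from RefSeq.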

Additional observations from a re-analysis of the deposited data

Results flagged for a closer look

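Csf3r in MC38 was picked out because the anti-PD-1 difference was not the same in the 2 genotypes by a test of that difference. The interaction was 1.32 ± 0.282 on the log2(FPKM + 1) scale (adjusted p = 0.0409 in limma). It stayed called in only 2 of the 12 fits that left out 1 library. The anti-PD-1 difference was 1.49 in KO tumours and 0.17 in WT tumours. All 3 KO anti-PD-1 libraries were above all 3 KO PBS libraries.

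S100a8 in B16 was picked out in the same way. Its interaction was 2.43 ± 0.804 (adjusted p = 0.0497 in limma), with an anti-PD-1 difference of 1.78 in KO tumours and -0.64 in WT tumours. That call too was kept in only 2 of the 12 fits that left out 1 library. All 3 KO anti-PD-1 libraries were above all 3 KO PBS libraries, and the WT libraries overlapped.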

How the results depend on the processing

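No paired analysis was possible because replicate numbers only follow the order of the records and the labels pair no libraries across groups. Of 772 alternative values for 36 gene results, 694 kept direction and side of the threshold, 56 lost a call, 20 gained one and 2 changed sign: Cxcl2 with anti-PD-1 in B16 KO tumours, with values of -0.03 to 0.89 when 1 library was left out, and the difference between lines in that effect for Csf3r, -0.61 with a pseudocount of 0.1. The numbers of members called as reported were 1 for MC38 KO against WT under PBS, under anti-PD-1 and averaged, 1 for the MC38 interaction, 0 for B16 KO against WT under anti-PD-1, 4 for B16 anti-PD-1 in KO and 1 for the B16 interaction. Without a filter on low values, when more genes were tested, the count was 0 for MC38 KO against WT under anti-PD-1, the MC38 interaction, B16 anti-PD-1 in KO and the B16 interaction. With all 24 libraries in 1 fit it was 0 for MC38 KO against WT under PBS, under anti-PD-1 and averaged, 0 for the MC38 interaction, 1 for B16 KO against WT under anti-PD-1, 2 for the B16 interaction and 5 for B16 anti-PD-1 in KO. With the filter at 6 libraries it was 1 for B16 KO against WT under anti-PD-1 and 2 for B16 anti-PD-1 in KO, where fewer members pass. Quantile normalization gave 1 for B16 KO against WT under anti-PD-1, only the groups compared gave 1 for B16 anti-PD-1 in KO, and protein-coding rescaling and no variance trend each gave 0 for the B16 interaction. Leaving out each library gave 0 to 1 for MC38 KO against WT under anti-PD-1 and for the MC38 interaction, 0 to 4 for B16 anti-PD-1 in KO, 0 to 3 for B16 KO against WT under anti-PD-1, 0 to 3 for the B16 interaction and 0 to 3 for the difference between lines in anti-PD-1 in KO. Where no reason is given, the cause was not tested.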
